A study of Mus musculus with 20 samples.

Results

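Arg1, Arg2, Nos2, Ass1, Asl, Slc7a2, Odc1 and Gch1, genes of arginine metabolism, were followed library by library through an RNA-seq series of mouse bone marrow-derived macrophages (BMDMs). They are 8 of the 21963 gene entries of the count table and were picked by symbol. Arg1 was chosen on its difference between Mcu-/- and WT macrophages with zymosan, and Nos2 was chosen on its response to zymosan in WT macrophages. Values from those comparisons, and from the zymosan response of Mcu-/- cells that uses the same libraries, are therefore given as a description without a test. All 8 genes passed the filter on low counts. The 20 libraries form 5 groups: untreated WT cells (n = 4), WT cells given zymosan for 3 h (n = 5), WT cells loaded with BAPTA-AM and given zymosan (n = 4), untreated Mcu-/- cells (n = 4) and Mcu-/- cells given zymosan for 3 h (n = 3). Mcu encodes the pore of the mitochondrial Ca2+ uniporter, zymosan is a yeast cell wall particle that macrophages bind through Toll-like receptor 2 and dectin-1, and BAPTA-AM (10 µM in the study's methods) is a cell-permeant Ca2+ chelator. The study took these cells from mice 15 to 25 weeks old, and the Mcu-/- cells from floxed mice with a Cx3cr1-driven Cre. The labels call the libraries of a group biological replicates without tying them to animals, so p-values measure only the spread between these samples. BAPTA-AM loading was tested against the WT zymosan libraries that helped choose Arg1 and Nos2. The untreated genotypes were tested with the untreated WT libraries that helped choose Nos2. The p-values of these genes, and of their ratio, in those tests are not independent of that choice.

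Arginine enters macrophages through cationic amino acid transporters and can then be used in competing ways. Nitric oxide synthase, which needs the cofactor tetrahydrobiopterin, turns it into nitric oxide and citrulline, and citrulline can be rebuilt into arginine by argininosuccinate synthase and lyase. Arginase splits it into urea and ornithine, from which polyamines and proline are made. In mouse macrophages Nos2 is a textbook marker of activation by microbial products and interferon, and Arg1 of activation by interleukin-4.

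Total counts ran from 14420402 to 23954552 per library. Levels are given as raw counts or as normalised counts-per-million (CPM), for which counts were scaled to a common library size. Mcu lay at 2.63 to 4.05 CPM in the Mcu-/- libraries and at 6.10 to 9.55 CPM in the WT libraries, without overlap, so its reads were fewer but not absent. Untreated Mcu-/- replicate 4 stood apart from the other 3 libraries of its group: the mean chi-square per gene was 212 to 220 in its 3 pairs and 1.60 to 6.33 in the other 28 pairs of replicates. Fold changes of the 8 genes in untreated Mcu-/- cells, and the counts of called genes over all pathway lists, are given with and without it. Macrophage markers were present in every group, 9 of 9 with counts. Their summed level was 8713 to 10789 CPM in replicate 4 and the 3 Mcu-/- zymosan libraries and 13471 to 16411 CPM in the others, but its members went both ways. In those 4 libraries Lyz2 (2823 to 3280 CPM), Adgre1 (2462 to 2909 CPM) and Itgam (238 to 284 CPM) were lower than elsewhere (6867 to 8390, 3855 to 5060 and 704 to 886 CPM), whereas Cd68 (971 to 1175 CPM), Fcgr1 (518 to 586 CPM) and Csf1r (1062 to 1270 CPM) were higher (209 to 321, 106 to 240 and 504 to 879 CPM elsewhere). In the same 4 libraries the 5 fibroblast markers summed to 28.3 to 52.3 CPM, against 1.10 to 6.63 CPM elsewhere, through Col1a1 and Col1a2. The fibroblast markers Pdgfra and Dcn stayed at or under 0.398 CPM in every library. Neutrophil markers summed to at most 1.48 CPM, markers of mast cells, basophils and eosinophils to at most 0.258 CPM and erythroid markers to at most 0.712 CPM. Markers of T, NK and B cells summed to at most 2.57 CPM. Dendritic cell markers reached 11.5 CPM, mostly through Xcr1 in libraries with zymosan. Endothelial cell markers summed to 25.9 to 27.8 CPM in the same 4 libraries and to 37.9 to 56.2 CPM elsewhere. The part of these shifts in the results was not tested. In bulk RNA, fewer cells of a type and less RNA per cell cannot be told apart.

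Arg1, the cytosolic arginase (ENSMUSG00000019987, chr10:24915221-24927484 on the minus strand, mm10), was abundant in 4 libraries only. It had 13, 12, 22 and 24 raw counts in the untreated WT libraries and 1, 0, 5, 3 and 2 in WT cells with zymosan. BAPTA-AM loaded WT cells with zymosan had 2, 5, 2 and 3 counts. Arg1 was thus near the floor of 3 counts in all 9 WT libraries that received zymosan. In Mcu-/- cells it had 44, 36, 24 and 377 counts without zymosan, the last in replicate 4, and 251, 243 and 323 counts with zymosan. On the CPM scale the Mcu-/- zymosan libraries averaged 14.9 ± 1.17 (SD, n = 3), untreated Mcu-/- replicate 4 was at 14.96, and replicates 1 to 3 of that group averaged 1.26 ± 0.376 (SD, n = 3). Replicate 4 lay inside the range of the zymosan-treated Mcu-/- libraries (13.7 to 16.1 CPM) although it was labelled untreated. Untreated WT cells averaged 0.838 ± 0.391 CPM (SD, n = 4), and their range of 0.509 to 1.35 CPM overlapped that of Mcu-/- replicates 1 to 3 (0.876 to 1.63 CPM).

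Pooled over the libraries of each group, Arg1 with zymosan was 126-fold higher in Mcu-/- than in WT cells (95% exact interval 69.9 to 253). This interval and the others on pooled counts cover counting error only. Within Mcu-/- cells the pooled level with zymosan was 11.8-fold that of untreated replicates 1 to 3 (9.64 to 14.7) and 0.997-fold that of replicate 4 (0.881 to 1.13). In WT cells it was 6.79-fold lower with zymosan than without (3.57 to 14.2). Measured against untreated Mcu-/- replicates 1 to 3, the direction of the zymosan response of Arg1 was thus opposite in the 2 genotypes. Against replicate 4 the pooled level in Mcu-/- cells did not rise. The contrast between genotypes was not tested because it uses the libraries that chose the gene.

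**Figure D1:**
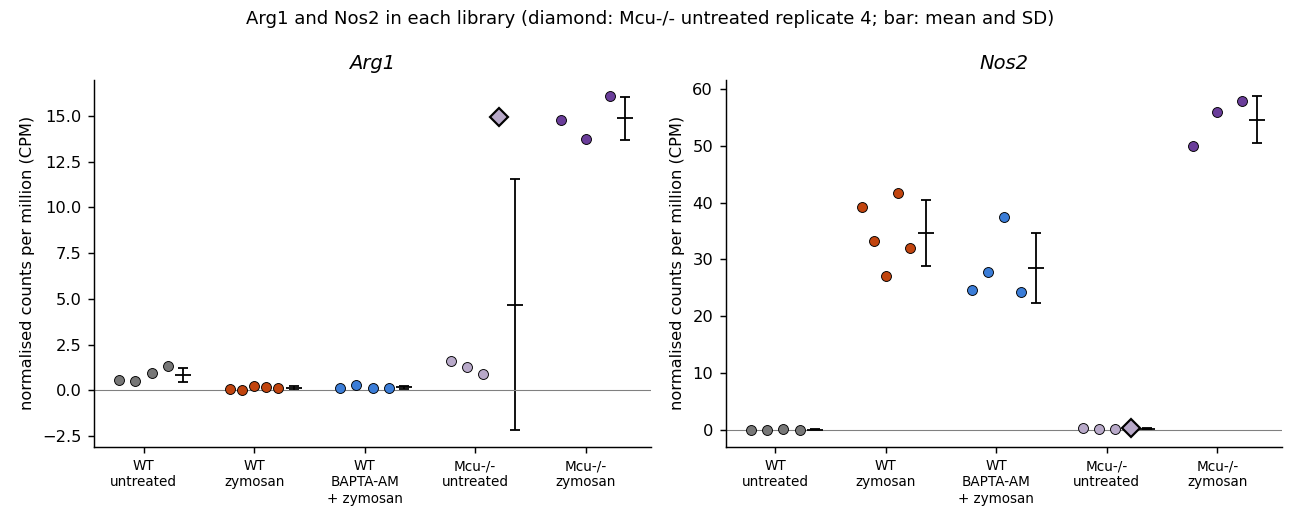
Normalised CPM of Arg1 (left) and Nos2 (right) in each of the 20 libraries by group, with each group's mean and SD beside the points. Arg1 was high in the 3 Mcu-/- zymosan libraries (13.7 to 16.1 CPM) and in untreated Mcu-/- replicate 4 (14.96 CPM, diamond), whereas Nos2 was high in all 12 libraries with zymosan and at most 0.333 CPM without it.

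Arg2, the mitochondrial arginase (ENSMUSG00000021125, chr12:79130777-79156301 on the plus strand), followed zymosan and not genotype in these libraries. Raw counts were 3, 2, 4 and 8 in untreated WT and 7, 4, 3 and 3 in untreated Mcu-/- cells. With zymosan they were 22, 34, 27, 27 and 14 in WT cells, 28, 23, 16 and 32 in BAPTA-AM loaded cells and 16, 29 and 26 in Mcu-/- cells. The 3 zymosan groups overlapped one another, between 0.776 and 1.76 CPM, and lay above the untreated groups, between 0.0848 and 0.449 CPM. Replicate 4, high for Arg1, was at 0.119 CPM for Arg2. Per kilobase of exon, the level of Arg1 exceeded that of Arg2 in Mcu-/- cells with zymosan (6.67 ± 0.524 against 0.904 ± 0.244 CPM per kb, SD, n = 3), and Arg2 exceeded Arg1 in WT cells with zymosan (0.930 ± 0.252 against 0.0527 ± 0.0441 CPM per kb, SD, n = 5).

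Nos2, the inducible nitric oxide synthase (ENSMUSG00000020826, chr11:78920787-78960254 on the plus strand), rested almost wholly on zymosan. It had 0, 0, 2 and 0 raw counts in untreated WT and 9, 2, 5 and 7 in untreated Mcu-/- cells. With zymosan it had 688, 642, 531, 763 and 579 counts in WT cells, 461, 510, 590 and 479 in BAPTA-AM loaded WT cells and 849, 989 and 1164 in Mcu-/- cells. The zymosan and untreated libraries did not overlap in either genotype. Pooled, the level in WT cells was 1523-fold higher with zymosan (421 to 12578, the width set by the 2 counts without it), and in Mcu-/- cells 257-fold higher (171 to 406). In order of level, Mcu-/- cells with zymosan came first at 54.6 ± 4.11 CPM (SD, n = 3), then WT cells with zymosan at 34.7 ± 5.86 CPM (SD, n = 5) and BAPTA-AM loaded cells at 28.5 ± 6.19 CPM (SD, n = 4). The Mcu-/- range (49.98 to 57.9 CPM) lay above both WT ranges, which overlapped (27.1 to 41.8 and 24.2 to 37.5 CPM). Untreated Mcu-/- replicate 4 was at 0.278 CPM, within the range of the other untreated Mcu-/- libraries, so that the library shared the Arg1 level of the zymosan-treated Mcu-/- cells but not their Nos2 level.

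Gch1 encodes GTP cyclohydrolase 1, which starts the synthesis of tetrahydrobiopterin (ENSMUSG00000037580, chr14:47153895-47189413 on the minus strand). Untreated libraries held 30.4, 29.0, 30.3 and 28.7 CPM in WT and 27.7, 30.0, 28.6 and 32.9 CPM in Mcu-/- cells. With zymosan it reached 181, 171, 163, 176 and 166 CPM in WT cells and 168, 177 and 179 CPM in Mcu-/- cells. These ranges overlapped between genotypes with and without zymosan. BAPTA-AM loaded cells held 152, 147, 156 and 150 CPM, below every other zymosan library.

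The ratio of Arg1 to Nos2 was taken in each library as log2 of normalised counts plus 1. It was 3.73 ± 0.822 (SD, n = 4) in untreated WT cells and -7.95 ± 1.11 (SD, n = 5) with zymosan. In Mcu-/- cells it was 2.54 ± 0.816 (SD, n = 3) in untreated replicates 1 to 3, 5.53 in replicate 4 and -1.87 ± 0.135 (SD, n = 3) with zymosan. Every untreated library thus had more Arg1 than Nos2 reads and every zymosan library fewer, and the ratio in Mcu-/- cells with zymosan lay between the 2 states of WT cells. Per kilobase of exon, the Nos2 level in the 3 Mcu-/- zymosan libraries was 1.71, 2.06 and 1.82 times that of Arg1. BAPTA-AM loading gave a ratio of -7.11 ± 0.555 (SD, n = 4), 0.84 above zymosan alone, which was not called different by an exact two-sided permutation test (p = 0.254, smallest possible 0.00794).

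**Figure D2:**
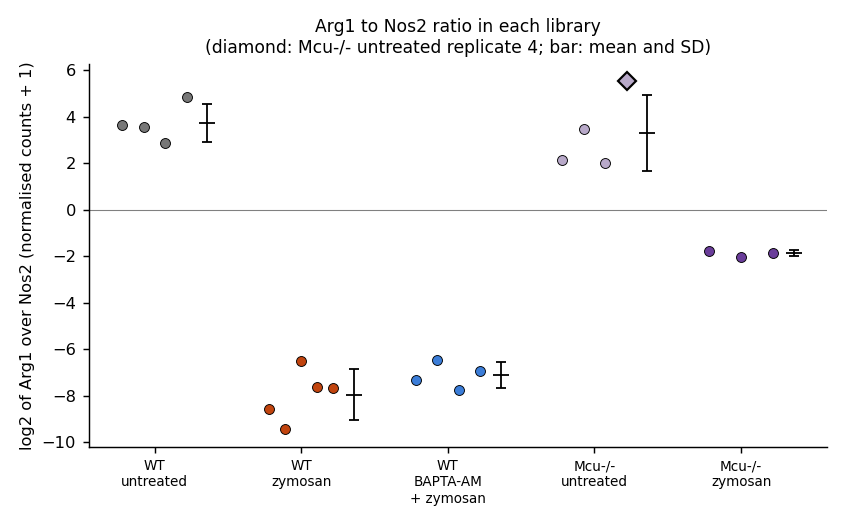
Log2 of the ratio of Arg1 to Nos2 normalised counts (plus 1) in each library by group, with mean and SD beside the points. Untreated libraries lay above 0, at 2.00 to 5.53, WT zymosan libraries with or without BAPTA-AM at -9.43 to -6.44, and Mcu-/- zymosan libraries between them, at -2.02 to -1.75.

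Slc7a2, the inducible cationic amino acid transporter CAT-2 (ENSMUSG00000031596, chr8:40862396-40922308 on the plus strand), was the arginine importer of the set. Untreated libraries had 14, 11, 16 and 5 raw counts in WT and 17, 19, 18 and 47 in Mcu-/- cells, the 47 in replicate 4. With zymosan it was at 92.9, 88.0, 84.6, 90.6 and 78.2 CPM in WT cells, 93.1, 94.4, 94.4 and 99.2 CPM in BAPTA-AM loaded cells and 113, 109 and 108 CPM in Mcu-/- cells. The 3 zymosan groups did not overlap, though BAPTA-AM loaded and unloaded WT cells nearly met. The mean in WT cells was 171-fold higher with zymosan than without.

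The citrulline-recycling enzymes behaved differently from each other. Ass1, argininosuccinate synthase, which joins citrulline to aspartate (ENSMUSG00000076441, chr2:31470207-31520672 on the plus strand), was at 14.2, 13.9, 13.4 and 11.6 CPM in untreated WT cells and at 172, 158, 153, 194 and 170 CPM with zymosan. BAPTA-AM loaded cells with zymosan held 113, 109, 122 and 113 CPM. In Mcu-/- cells it was at 14.7, 13.1, 12.5 and 27.7 CPM without zymosan, the last in replicate 4, and at 71.1, 73.0 and 71.5 CPM with it. The 3 zymosan groups were separate, with WT highest, BAPTA-AM loaded WT next and Mcu-/- lowest. Both altered groups thus lay below unloaded WT cells, comparisons that share the 5 WT zymosan libraries. Replicate 4 held 2.06 times the pooled Ass1 level of replicates 1 to 3 (1.88 to 2.27).

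Asl, argininosuccinate lyase, which releases arginine and fumarate (ENSMUSG00000025533, chr5:130011258-130029247 on the minus strand), moved little. It was at 27.8, 26.8, 29.3 and 28.2 CPM in untreated WT cells, 33.2, 31.2, 32.6, 32.1 and 32.9 CPM with zymosan and 29.0, 29.9, 29.9 and 29.1 CPM with BAPTA-AM and zymosan. Mcu-/- cells were at 30.1, 25.7, 26.0 and 23.6 CPM without and 24.3, 27.4 and 25.4 CPM with zymosan. Unloaded WT cells with zymosan lay above every other zymosan library. Odc1, ornithine decarboxylase, the entry to polyamine synthesis downstream of arginase (ENSMUSG00000011179, chr12:17544794-17551505 on the plus strand), was at 165 to 179 CPM in untreated WT and 168 to 198 CPM in untreated Mcu-/- cells. With zymosan it was at 466, 431, 417, 405 and 406 CPM in WT cells, 379, 372, 370 and 405 CPM in BAPTA-AM loaded cells and 439, 456 and 469 CPM in Mcu-/- cells. The zymosan groups overlapped except that Mcu-/- cells lay above BAPTA-AM loaded WT cells, and the mean in WT cells was 2.48-fold higher with zymosan than without.

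**Figure D3:**
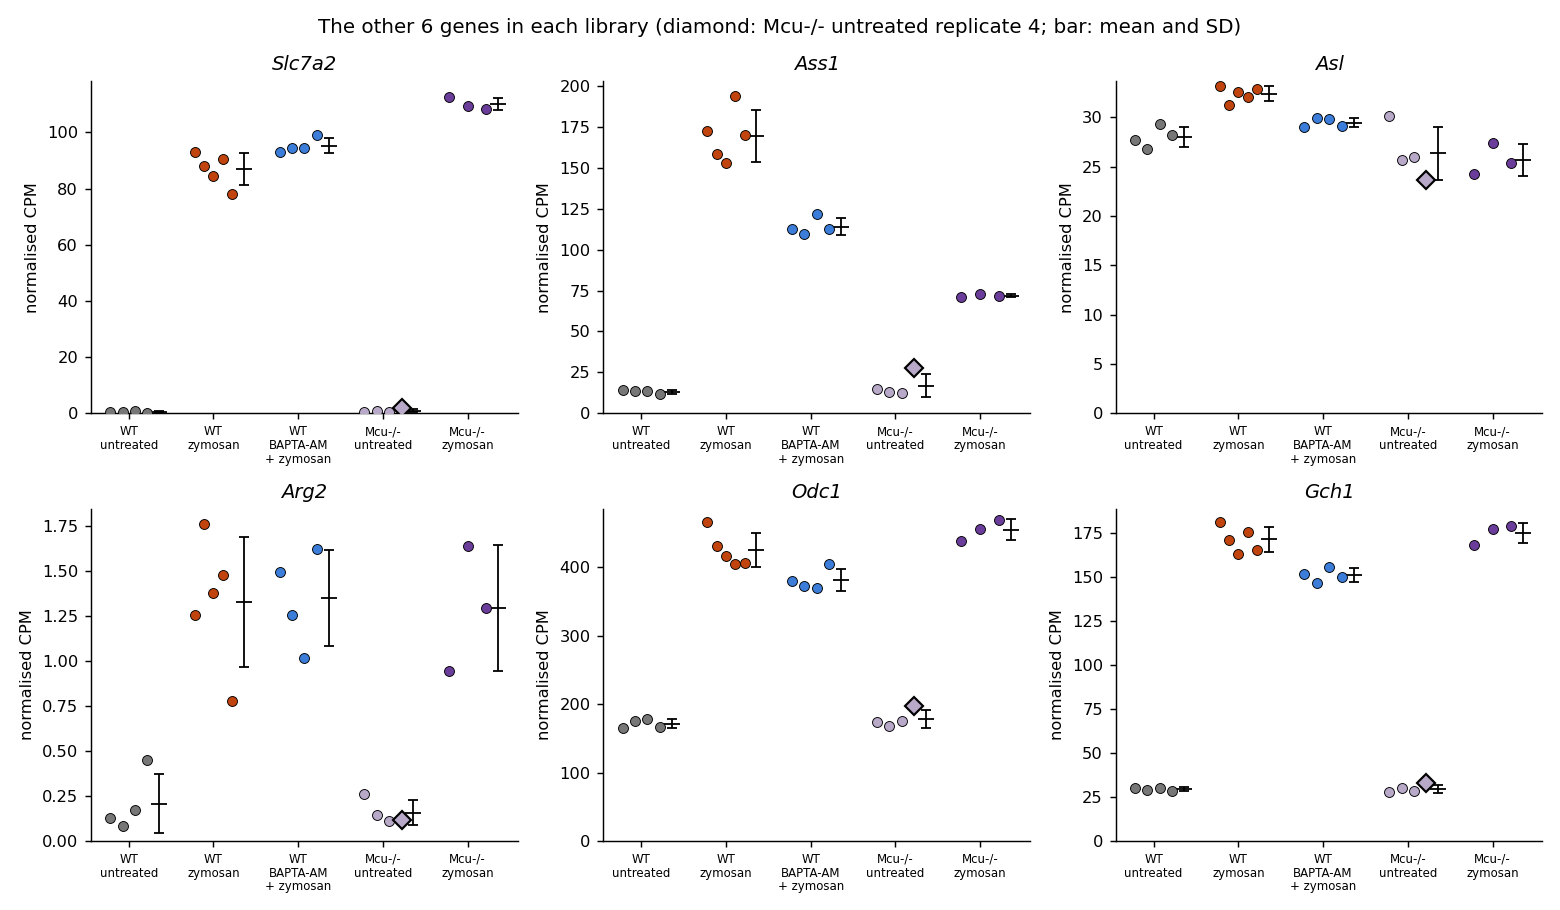
Normalised CPM of Slc7a2, Ass1, Asl, Arg2, Odc1 and Gch1 in each library by group, with mean and SD beside the points and axes starting at 0. Ass1 was highest in WT cells with zymosan (153 to 194 CPM), lower with BAPTA-AM (109 to 122 CPM) and lowest of the zymosan groups in Mcu-/- cells (71.1 to 73.0 CPM), and untreated Mcu-/- replicate 4 (diamond, 27.7 CPM) lay above its group.

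BAPTA-AM loading during zymosan stimulation asks how much of the response depends on Ca2+ in the cell. Ass1, of citrulline recycling, and Gch1, of cofactor synthesis, were lower in loaded WT cells, Ass1 with a log2 difference of -0.57 (SE 0.15, edgeR adjusted p = 0.0197) and Gch1 at -0.18 (SE 0.05, edgeR adjusted p = 0.0123). Their loaded and unloaded libraries did not overlap. Nos2 changed by -0.28 (SE 0.15, edgeR adjusted p = 0.263), Odc1 by -0.16 (SE 0.05, adjusted p = 0.0621) and Asl by -0.14 (SE 0.06, adjusted p = 0.134), none of them called. Slc7a2 (0.13, SE 0.12), Arg2 (0.02, SE 0.28) and Arg1 (0.46, SE 1.74) were not called either, with edgeR adjusted p-values of 0.558, 0.978 and 0.921. For Arg1 the pooled ratio of 1.39 had an interval of 0.563 to 3.49, which covers counting error only. With an SE of 1.74 in the fit, differences outside that range could also go uncalled. The 2 lower calls among 8 stand against 6.33% of the 11707 genes tested, and no call of a higher level against 6.43%. In these genes 4 had an unadjusted p under 0.05, all with lower levels, and DESeq2 called 3. No share of all genes is given for these criteria, and nothing is read from those counts. The median change was -0.15 over the 8 genes and 0.00 over all genes tested.

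The call of Ass1 was lost when WT zymosan replicate 4 or BAPTA-AM replicate 1, 2 or 4 was left out, with log2 fold changes of -0.52, -0.56, -0.55 and -0.56 and edgeR adjusted p-values of 0.0516, 0.0544, 0.0604 and 0.0540. The call of Gch1 was kept whichever single library was left out. Without untreated Mcu-/- replicate 4, which is in neither group but enters the shared estimate of spread, 6 of the 8 genes were called: Nos2 (-0.29, edgeR adjusted p = 0.0200), Ass1 (-0.57, 1.70e-12), Asl (-0.14, 0.0395), Odc1 (-0.15, 0.000532) and Gch1 (-0.18, 3.57e-05) lower, and Slc7a2 higher (0.13, 0.00998). In that fit 16.5% of 11666 genes were lower and 15.3% higher. The fold changes hardly moved and the estimated variation between replicates fell from 12.4% to 3.56% (biological coefficient of variation).

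The sequences directly before the annotated starts of the genes called lower with BAPTA-AM in all libraries are shown for orientation. RefSeq windows (GRCm38.p6) were at hand for 3 of the 8 genes, Ass1, Odc1 and Gch1. The 250 bases before each start were searched on both strands for the TATA box (TATAAA), GAS (TTCNNNGAA), C/EBP (TTGCNNAA), CRE (TGACGTCA), AP-1 (TGANTCA), the NFAT core (GGAAA), STAT6, ISRE and kappa B. The Ass1 sequence is chr2:31470020-31470206 on the plus strand, which ends at the GENCODE start of the gene, and the Gch1 sequence is chr14:47189414-47189663 on the minus strand. Both read 5′ to 3′ toward the gene, and capitals mark matches.
Ass1: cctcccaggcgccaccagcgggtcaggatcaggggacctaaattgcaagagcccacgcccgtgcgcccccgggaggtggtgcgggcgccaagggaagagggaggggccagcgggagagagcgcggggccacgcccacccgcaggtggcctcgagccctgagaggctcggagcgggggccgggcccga
Gch1: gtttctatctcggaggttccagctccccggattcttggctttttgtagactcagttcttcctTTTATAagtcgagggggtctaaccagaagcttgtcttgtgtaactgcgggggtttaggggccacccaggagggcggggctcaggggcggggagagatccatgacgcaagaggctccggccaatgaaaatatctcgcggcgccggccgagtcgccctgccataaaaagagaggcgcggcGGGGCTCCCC
The Gch1 window held 1 match to the kappa B consensus (GGGGCTCCCC) at 10 to 1 bases before the start, a motif found in 3.9% of 32851 such windows, and the letters of a TATA box on the opposite strand at 188 to 183 bases, found in 12.4%. The windows of Ass1 and Odc1 held no match to any of the 9 motifs. For comparison, the NFAT core was found in 55.6% of windows. A match describes letters in the sequence and no bound factor.

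**Figure D4:**
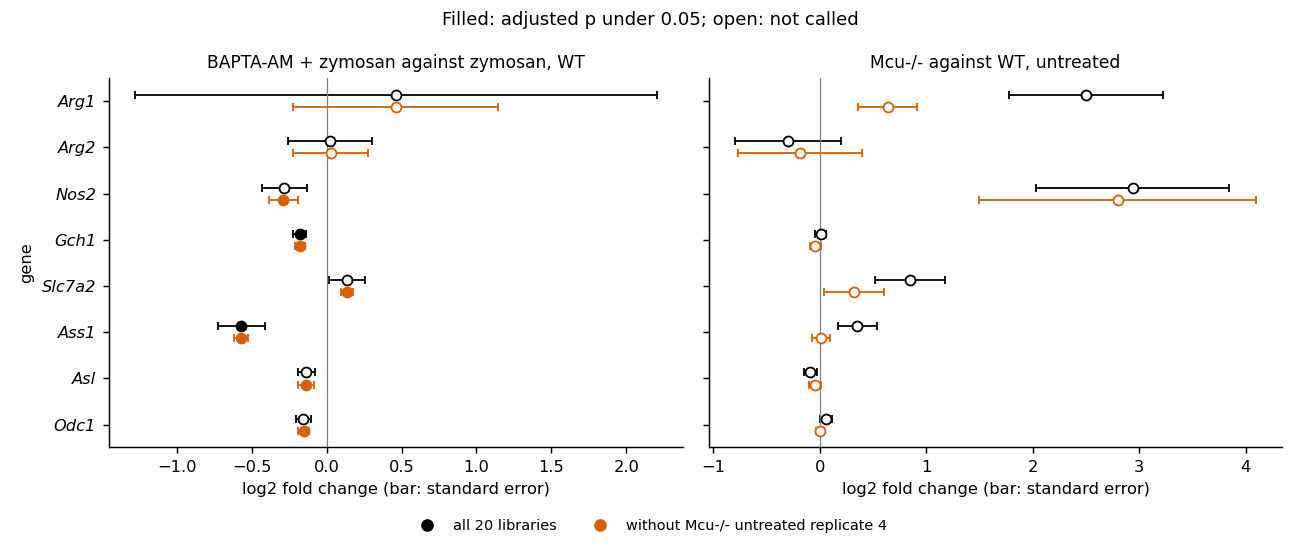
Log2 fold changes of the 8 genes with standard errors for BAPTA-AM with zymosan against zymosan alone in WT cells (left) and for Mcu-/- against WT cells without treatment (right), with all 20 libraries (black) and without untreated Mcu-/- replicate 4 (orange); filled points were called at an edgeR adjusted p under 0.05. With all libraries Ass1 and Gch1 were called lower with BAPTA-AM, and no gene was called between untreated genotypes.

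Without zymosan, 0 of the 8 genes were called between Mcu-/- and WT cells by edgeR, 3 had an unadjusted p under 0.05 (Arg1, Nos2 and Slc7a2), and DESeq2 called 0. Of all genes tested, 0.128% were higher and 0.222% lower. Arg1 differed by 2.50 (SE 0.73, edgeR adjusted p = 0.172), and by 0.64 (SE 0.28, edgeR adjusted p = 0.259) without replicate 4. Slc7a2 differed by 0.85 (SE 0.33, edgeR adjusted p = 0.255), and by 0.32 (SE 0.28, edgeR adjusted p = 0.681) without it. Ass1 went from 0.35 (SE 0.18, edgeR adjusted p = 0.354) to 0.01 (SE 0.09, edgeR adjusted p = 0.976). The higher means of these genes in untreated Mcu-/- cells therefore came mostly from 1 library. Nos2 differed by 2.94 (SE 0.91, edgeR adjusted p = 0.201), and by 2.80 (SE 1.30, edgeR adjusted p = 0.301) without it, on counts of 0 to 9. Arg2, Asl, Odc1 and Gch1 had differences from -0.30 to 0.06. Without replicate 4 edgeR still called 0 of the 8, with 2 at an unadjusted p under 0.05, while 1.53% of genes were higher and 1.83% lower. No share of all genes is given for the unadjusted counts, and nothing is read from them.

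With zymosan, Mcu-/- cells differed from WT cells by a log2 fold change of 6.90 (SE 0.91) for Arg1, 0.66 (SE 0.16) for Nos2 and 0.34 (SE 0.13) for Slc7a2, and by -1.24 (SE 0.18) for Ass1 and -0.33 (SE 0.06) for Asl. Odc1 (0.10, SE 0.06), Gch1 (0.03, SE 0.05) and Arg2 (-0.04, SE 0.31) differed by less than 2 standard errors. The fit called 3 of the 8 higher, against 31.8% of all genes, and 2 lower, against 30.3%. These counts hold genes chosen on this comparison, and nothing is read from them. Leaving out 1 library at a time moved the difference of Slc7a2 between 0.31 and 0.37.

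The zymosan response was also described gene by gene. In WT cells the log2 fold change was 10.24 (SE 0.37) for Nos2, 7.37 (SE 0.20) for Slc7a2, 3.67 (SE 0.18) for Ass1, 2.73 (SE 0.37) for Arg2, 2.53 (SE 0.05) for Gch1 and 1.31 (SE 0.06) for Odc1. Asl differed by 0.21 (SE 0.06), which turned to -0.28 when libraries were scaled by their totals, and Arg1 by -2.72 (SE 1.22). The fit called 7 of the 8 higher, against 32.4% of all genes, while 36.8% of genes were lower. In Mcu-/- cells the fold changes were 7.96 (SE 0.27) for Nos2, 6.86 (SE 0.19) for Slc7a2, 2.99 (SE 0.40) for Arg2, 2.55 (SE 0.05) for Gch1, 2.08 (SE 0.18) for Ass1, 1.68 (SE 0.62) for Arg1 and 1.35 (SE 0.06) for Odc1. Asl was at -0.04 (SE 0.07), and at 0.01 with DESeq2 size factors. Here 7 of the 8 were called higher, against 34.3% of all genes, and 39.4% of genes were lower, and nothing is read from either count. Without replicate 4 the change was 3.56 (SE 0.19) for Arg1, 2.42 (SE 0.07) for Ass1, 7.38 (SE 0.10) for Slc7a2 and 8.10 (SE 0.24) for Nos2, and it was 2.89 for Arg2, 2.61 for Gch1, 1.40 for Odc1 and -0.08 for Asl. The responses differed between genotypes, Mcu-/- minus WT, by 4.40 (SE 1.34) for Arg1, -2.28 (SE 0.95) for Nos2, -1.59 (SE 0.25) for Ass1, -0.51 (SE 0.35) for Slc7a2 and -0.25 (SE 0.09) for Asl, and by 0.02 to 0.26 for Gch1, Odc1 and Arg2. Without replicate 4 the difference was 6.26 (SE 0.47) for Arg1, -2.14 (SE 1.32) for Nos2, -1.25 (SE 0.10) for Ass1, 0.02 (SE 0.36) for Slc7a2 and -0.29 (SE 0.08) for Asl, so that the difference of Slc7a2 came from that library. The fitted folds of Nos2 against untreated WT cells depend on how 2 counts in 4 libraries are smoothed.

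The pathway around these genes was covered by 5 lists with 60 symbols, of which 42 passed the filter. With zymosan 16 were higher and 12 lower in WT cells, against 32.4% and 36.8% of all genes tested, and 12 were higher and 16 lower in Mcu-/- cells, against 34.3% and 39.4%. Without untreated Mcu-/- replicate 4 the counts were 18 and 14 in WT (37.2% and 41.3% of all genes) and 12 and 20 in Mcu-/- cells (39.2% and 42.4%). The median change was 0.03 and -0.12, against -0.04 and -0.06 over all genes tested. In arginine and ornithine transport (5 tested, 3 higher and 2 lower in WT), Slc3a2, the heavy chain shared by several amino acid transporters, rose by 1.18 (SE 0.20, edgeR adjusted p = 4.43e-05) and Slc7a1, the constitutive cationic transporter, by 1.14 (SE 0.10, edgeR adjusted p = 5.98e-09). In the urea cycle, ornithine and proline list (9 tested, 2 higher and 4 lower in WT), Aldh18a1, which starts proline and ornithine synthesis from glutamate, fell by 0.38 (SE 0.04, edgeR adjusted p = 1.51e-07). Polyamine genes had 10 higher and 4 lower of 18 tested in WT cells, among them Sat1, which acetylates polyamines (1.21, SE 0.09), Azin1, the antizyme inhibitor that spares ornithine decarboxylase (0.75, SE 0.04), and Smox, spermine oxidase (0.62, SE 0.06), all called higher by edgeR. With libraries scaled by their totals, Smox was at 0.13 and lost its call. Of 5 tetrahydrobiopterin genes other than Gch1, Spr, sepiapterin reductase, fell by 0.35 (SE 0.08, edgeR adjusted p = 0.000764), and Qdpr, which recycles the cofactor, rose by 0.11 (SE 0.04, edgeR adjusted p = 0.0268), a change that turned to -0.39 with library totals and lost its call in 4 of 20 fits that left out a library (untreated WT replicate 2 or 3, WT zymosan replicate 2 or 3). Nosip, which binds nitric oxide synthases, fell by 0.65 (SE 0.13, edgeR adjusted p = 0.000148). In Mcu-/- cells Slc3a2 rose by 1.69 (SE 0.23, edgeR adjusted p = 2.19e-06) and Atp13a2, which moves polyamines out of lysosomes, fell by 1.14 (SE 0.11, edgeR adjusted p = 5.17e-08). Without replicate 4 these changes were 2.16 (SE 0.04) and -1.27 (SE 0.04).

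Between Mcu-/- and WT cells with zymosan, 7 of the 42 genes were higher, against 31.8% of all genes tested, and 20 lower, against 30.3%, with a median of -0.26 against 0.02 over all genes tested. Gatm, which uses arginine to start creatine synthesis, was at 323 ± 2.17 CPM (SD, n = 3) in Mcu-/- and 122 ± 3.77 CPM (SD, n = 5) in WT cells (1.40, SE 0.20, edgeR adjusted p = 1.53e-05). Slc3a2 was at 901 ± 21.0 against 459 ± 17.4 CPM (0.97, SE 0.21, edgeR adjusted p = 0.000702), and Slc7a7, its partner in exporting cationic amino acids, at 36.1 ± 2.10 against 68.5 ± 1.28 CPM (-0.92, SE 0.13, edgeR adjusted p = 1.13e-05). Without replicate 4, 7 were higher and 21 lower (36.4% and 33.7% of all genes). The polyamine list had 2 higher and 10 lower of 18 tested. They included Oaz2, an antizyme (-0.87, SE 0.13), Atp13a2 (-0.76, SE 0.11), and Sat1 (-0.61, SE 0.10), with edgeR adjusted p-values of 1.67e-05, 1.37e-05 and 4.07e-05. Ornithine aminotransferase, Oat, differed by -0.44 (SE 0.07, edgeR adjusted p = 3.90e-05). Of the tetrahydrobiopterin genes Pts, of the same synthesis as Gch1, was called lower (-0.82, SE 0.18, edgeR adjusted p = 0.000716), while Gch1 overlapped between genotypes. Nosip (0.71, SE 0.14) and Adh5, which reduces S-nitrosoglutathione (0.37, SE 0.07), were called higher, and Nostrin (-0.91, SE 0.17) lower. Among untreated Mcu-/- libraries Gatm ran from 119 to 301 CPM and Slc7a7 from 26.2 to 48.0 CPM. Replicate 4 was at 301 CPM for Gatm, near the zymosan-treated Mcu-/- level, and at 26.2 CPM for Slc7a7, below that level. Against replicate 4 alone, Gatm in Mcu-/- cells hardly changed with zymosan and Slc7a7 rose.

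**Figure D5:**
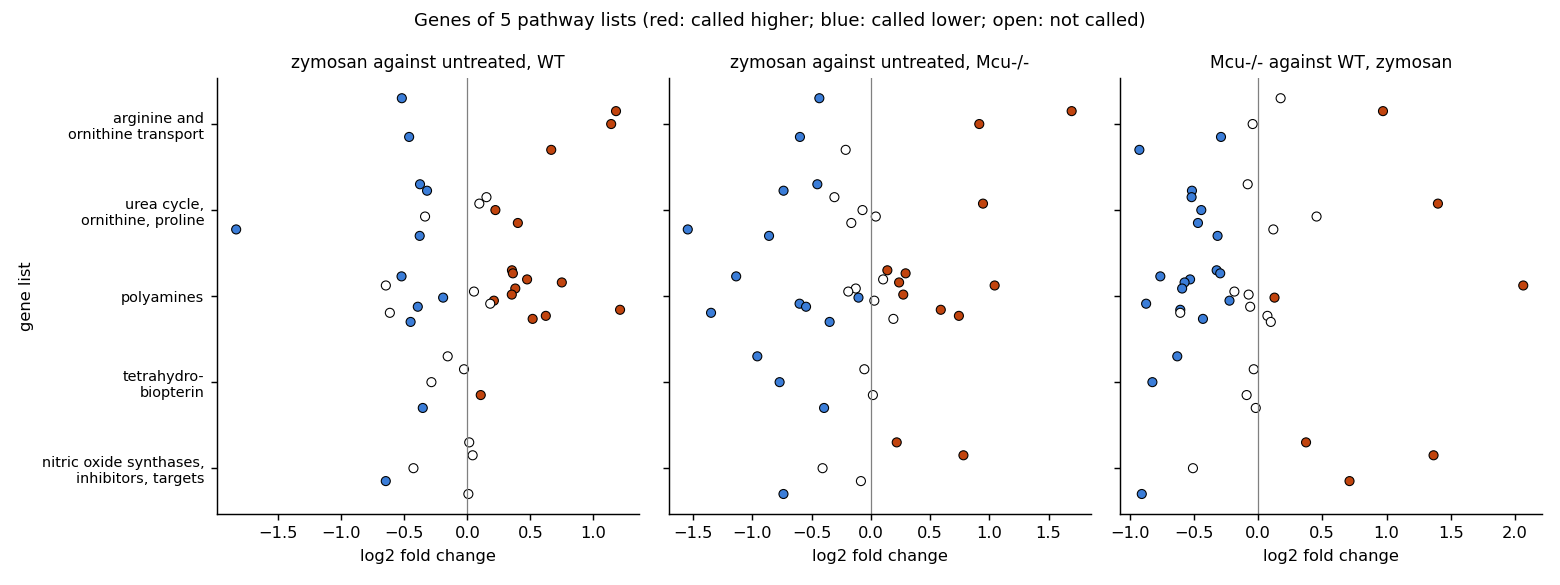
Log2 fold changes of the 42 tested genes of 5 pathway lists for zymosan in WT cells (left), zymosan in Mcu-/- cells (middle) and Mcu-/- against WT cells with zymosan (right), each point a gene, red and blue where called higher and lower by edgeR. Called genes split 16 higher and 12 lower, 12 higher and 16 lower, and 7 higher and 20 lower.

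The zymosan response of the list genes was compared between genotypes by the interaction term, with 3 of 42 called higher and 13 lower in Mcu-/- cells, against 15.2% and 20% of all genes, and 6 and 19 without untreated Mcu-/- replicate 4, against 31.0% and 29.3%. Of the 8 genes above, this term called 1 higher and 2 lower, counts from libraries that chose them and from which nothing is read. Among the genes named from the 5 lists, the responses differed for Slc7a7 (-0.88, SE 0.18, edgeR adjusted p = 0.00117), Gatm (0.85, SE 0.29, edgeR adjusted p = 0.0281) and Oaz2 (-0.78, SE 0.17, edgeR adjusted p = 0.00221). Without replicate 4 they differed by -1.04, 1.30 and -0.94. That library was near the zymosan-treated Mcu-/- level for Gatm and below it for Slc7a7. Against it alone, Gatm hardly changed with zymosan and Slc7a7 rose. The call of Gatm was lost in 6 of 20 fits without one library (each of Mcu-/- untreated replicates 1 to 3 and of the Mcu-/- zymosan libraries), with differences of 0.72 or more.

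With BAPTA-AM, 2 of the 42 list genes were higher and 4 lower, shares near the 6.43% and 6.33% of all genes. Oat (0.23, SE 0.06, edgeR adjusted p = 0.0227) and Aldh18a1 (0.17, SE 0.04, edgeR adjusted p = 0.0104), rose. Azin1 (-0.21, SE 0.04, edgeR adjusted p = 0.000987), Amd1, which makes the aminopropyl donor of polyamines (-0.20, SE 0.04, edgeR adjusted p = 0.00375), Slc7a7 (-0.42, SE 0.12, edgeR adjusted p = 0.0221) and Mtap, of methionine salvage (-0.11, SE 0.03, edgeR adjusted p = 0.0433), fell. Azin1, Amd1 and Aldh18a1 kept their calls whichever library was left out. Slc7a7 lost its call without BAPTA-AM replicate 2, 3 or 4, Oat without BAPTA-AM replicate 2 or 3, and Mtap in 12 of 20 fits. Without untreated Mcu-/- replicate 4 edgeR called 4 of the list genes higher and 10 lower, against 15.3% and 16.5% of all genes. Between untreated genotypes 0 of the 42 were called by edgeR, against 0.128% of all genes higher and 0.222% lower, and DESeq2 called 0. An unadjusted p under 0.05 was reached by 9, a count with no share of all genes beside it, from which nothing is read. Without replicate 4 edgeR called 1, higher, against 1.53% of all genes higher and 1.83% lower.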

How the data were processed

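Per the study's methods, the authors trimmed reads with cutadapt, aligned them to mm10 with STAR and counted reads per gene with HTSeq, and they deposited the raw counts in 1 table. Versions and the annotation release are not given in the sources used here. From these counts edgeR 4.0.16 (R 4.3.3, limma 3.58.1) was fitted to all 20 libraries with filterByExpr, TMM scaling and 1 coefficient per group, using the quasi-likelihood test and Benjamini-Hochberg adjustment over 11707 genes, and a gene was called at an adjusted p under 0.05. DESeq2 1.42.0, other scalings and filters, and leaving out each library were alternatives. The script was tested on simulated data. Exact 95% intervals cover counting error only, and the floor was 3 counts.

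The 8 genes and the lists were chosen with earlier results of these data known. Besides the 8 genes and Mcu, a list gene was named where it was called and reached a mean of 10 CPM in the higher group, at most the 3 with the largest change per list and comparison (some of these genes are not reported here), and for Arg1 and Nos2 the 5 genes with the highest Pearson correlation of log2 CPM (prior count 2). Of the list symbols, 3 were matched through RefSeq synonyms. Mcu-/- zymosan columns are numbered 3, 4 and 5 in the table while the labels count from 1, so these libraries are named by column number and stayed out of the fit with a replicate block. Lengths and positions came from GENCODE M21 (mm10). Python 3.11.15, scipy 1.17.1 and matplotlib 3.10.9 were used for the ratio, the sequence search and the plots.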

Additional observations from a re-analysis of the deposited data

Results flagged for a closer look

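Within groups of 4 or 5 libraries, 1 library lay far from the rest in 4 of 32 sets of values checked. The rule's chance rate of about 1 in 20 does not hold for counts near 0 or for sets that share a library. No excess is therefore read from this count. In untreated Mcu-/- replicate 4, Arg1 was at 14.96 CPM, Ass1 at 27.7 CPM and Slc7a2 at 1.86 CPM, each above the other 3 libraries of its group. In untreated WT replicate 3, Nos2 was at 0.0856 CPM, which is 2 counts where the other 3 libraries had 0.

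The zymosan response differed between genotypes, Mcu-/- minus WT on the log2 scale. For Arg1 the difference was 4.40, with a fall in WT and a rise in Mcu-/- cells, and it was 6.26 without untreated Mcu-/- replicate 4. The rise was seen against untreated Mcu-/- replicates 1 to 3 and not against replicate 4. The difference was not tested because the gene was chosen on these libraries. By the interaction term in edgeR, the response was smaller or more negative in Mcu-/- cells for Slc7a7 (-0.88, adjusted p = 0.00117), Oaz2 (-0.78, adjusted p = 0.00221), Nostrin (-0.74, adjusted p = 0.0147), Sat1 (-0.62, adjusted p = 0.00189), Atp13a2 (-0.61, adjusted p = 0.00432), Pycrl (-0.48, adjusted p = 0.0140) and Oat (-0.29, adjusted p = 0.0262). It was larger or less negative for Gatm (0.85, edgeR adjusted p = 0.0281) and Nosip (0.56, edgeR adjusted p = 0.0274). Without untreated Mcu-/- replicate 4 each of these 9 differences lay further from 0, from -1.04 for Slc7a7 to 1.30 for Gatm. That library was near the zymosan-treated Mcu-/- level for Gatm and below it for Slc7a7. Against it alone, Gatm hardly changed with zymosan and Slc7a7 rose. Whether the responses of these genes differ between genotypes, and by how much, therefore depends on which untreated Mcu-/- libraries form the baseline. The calls of Gatm, Oat and Nosip were lost in 6, 5 and 5 of the 20 fits that left out 1 library.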

How the results depend on the processing

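The alternatives on the named list genes were chosen after seeing the data. With at least 10 counts in every library the 8 genes gave 2 calls between genotypes with zymosan, 4 for zymosan in WT and 3 in Mcu-/- cells, since fewer of them could be tested. Fitting the BAPTA-AM groups alone gave 5 calls among the 8 genes and 14 among the list genes, where 15.9% of all genes were higher and 16.3% lower. A minimum change of 1 on the log2 scale left 0 and 0 calls with BAPTA-AM, 2 and 3 between genotypes with zymosan, and 4 and 5 list genes for zymosan in WT and Mcu-/- cells. Replicate numbers did not pair the samples (correlations of deviations from -0.05 to 0.06), and the fit with a replicate block called 0 of the 8 genes and 3 list genes with BAPTA-AM, where 3.64% of all genes were higher and 4.01% lower. Leaving out 1 library gave 1 to 6 and 3 to 14 calls with BAPTA-AM, and 0 to 1 list genes between untreated genotypes.

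Signs changed mostly near 0. With library totals Gch1 was at -0.0136 untreated and -0.0223 with zymosan between genotypes, and zymosan changes were -0.28 for Asl, -0.39 for Qdpr and -0.11 for Il4ra in WT and -0.30 for Adh5 in Mcu-/- cells. This scaling moved the median of all genes with zymosan to -0.54 in WT and -0.58 in Mcu-/- cells, from -0.04 and -0.06, and the share of higher calls to 18.6% and 19.0%, from 46.8% and 46.5%. With BAPTA-AM that share was 50.4%, 74.9% with library totals and 41.5% with DESeq2 size factors. Asl in Mcu-/- cells was at 0.00841 with DESeq2 size factors and 0.00819 by DESeq2, and at -0.0855 to 0.0347 leaving out 1 library. Arg2 with BAPTA-AM was at -0.14 with the block and at -0.117 to 0.146 leaving out 1 library, and between genotypes at -0.63 to 0.29 untreated and -0.24 to 0.133 with zymosan. Gch1 between untreated genotypes ran from -0.0415 to 0.0433. The cause was not tested. Of 1041 alternatives for fold changes of the 8 genes, 985 kept direction and side of the threshold, as did all 12 for the Arg1 to Nos2 ratio. Arg1 in WT cells with zymosan and Nos2 without it rest on 0 to 5 counts, which limits their folds.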

Other observations

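Of 16 transcription factors known to act on Arg1 or Nos2, 13 were higher and 2 lower with zymosan in WT cells (32.4% and 36.8% of all genes tested) and 11 were higher and 3 lower in Mcu-/- cells (34.3% and 39.4%). Without untreated Mcu-/- replicate 4, 13 were higher and 3 lower in WT cells (37.2% and 41.3%). The counts in Mcu-/- cells were then 13 and 3 as well (39.2% and 42.4%). Irf1, an interferon-response factor that drives Nos2, rose by 5.39 on the log2 scale (SE 0.09) in WT and by 5.45 (SE 0.10) in Mcu-/- cells, and the NF-kappa B subunits Rel and Nfkb1 rose by 2.55 and 2.36 in WT and by 2.87 and 2.70 in Mcu-/- cells, all called by edgeR. Between genotypes with zymosan 7 were higher and 4 lower, against 31.8% and 30.3% of all genes, and 8 and 6 without untreated Mcu-/- replicate 4, against 36.4% and 33.7%. Cebpb, a factor that acts on the Arg1 enhancer, was at 104 ± 3.20 CPM (SD, n = 3) in Mcu-/- and 252 ± 4.60 CPM (SD, n = 5) in WT cells (-1.28, SE 0.16, edgeR adjusted p = 3.80e-06). Epas1, a hypoxia-inducible factor, was at 13.2 ± 0.377 against 2.71 ± 0.460 CPM (2.28, SE 0.34, edgeR adjusted p = 2.32e-05). With BAPTA-AM 0 were higher and 2 lower by edgeR, against 6.43% and 6.33% of all genes. These were Irf8 (-0.38, SE 0.10, edgeR adjusted p = 0.0145) and Rel (-0.16, SE 0.04, edgeR adjusted p = 0.0170). Their calls were lost without BAPTA-AM replicate 1, and 2 or 3, respectively. An unadjusted p under 0.05 was reached by 3, a count with no share of all genes beside it, from which nothing is read. Without untreated Mcu-/- replicate 4, 1 was higher and 10 lower, against 15.3% and 16.5%.

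Of 14 genes of alternative activation 9 were tested. Il4ra, a chain of the interleukin-4 receptor, was at 431 ± 11.5 CPM (SD, n = 5) in WT cells with zymosan, 294 ± 13.5 CPM (SD, n = 4) with BAPTA-AM (-0.55, SE 0.04, edgeR adjusted p = 3.17e-08) and 179 ± 2.42 CPM (SD, n = 3) in Mcu-/- cells (-1.27, SE 0.04, edgeR adjusted p = 4.70e-13). The list had 2 genes higher and 4 lower between genotypes with zymosan (31.8% and 30.3% of all genes), with Fn1, fibronectin, higher (2.51, SE 0.54, edgeR adjusted p = 0.000644) and Mrc1, the mannose receptor, lower (-0.35, SE 0.10, edgeR adjusted p = 0.00783). Fn1 is also a gene of fibroblasts. Of the fibroblast markers, Col1a1 and Col1a2 were higher in the same libraries, while Pdgfra and Dcn stayed low in every library. The source of the Fn1 reads was not tested. With BAPTA-AM 3 were lower (6.33% of all genes), Il4ra and, named after their values were seen, Egr2 and Cd163. Without untreated Mcu-/- replicate 4, 4 were lower with BAPTA-AM (16.5% of all genes). Between genotypes with zymosan, 3 were then higher and 4 lower (36.4% and 33.7%).

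Over the 20 libraries, the genes whose log2 CPM followed Arg1 most closely among 8349 candidates were Cd72, Tbxas1, Lrpap1, Cd84 and Tmem209 (Pearson r of 0.970 to 0.973). Those closest to Nos2 were Il6, Arhgef3, Cxcl10, Ccrl2 and Anxa7 (r of 0.994 to 0.995). The points share groups and untreated Mcu-/- replicate 4, and no test was made.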
